A study of Mus musculus with 8 samples.

Results

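The major urinary protein (Mup) genes examined here are 10 genes of mouse liver, *Mup1*, *Mup2*, *Mup3*, *Mup7*, *Mup10*, *Mup11*, *Mup14*, *Mup17*, *Mup20* and *Mup21*. Their rows were found by matching the Ensembl identifiers of the count table to the GRCm38 annotation, and they are 10 of 18095 rows. The table holds 40 Mup rows in all, 21 protein-coding genes and 19 pseudogenes, so 30 of them are outside the 10. The 10 genes were chosen by their difference in counts between the groups of these libraries, so that difference is given below as a description, and nothing is read from the counts of members that passed a call. Liver RNA was sequenced from 4 HFD WT and 4 HFD Inpp4b-/- male mice. Inpp4b encodes a phosphoinositide phosphatase, and the comparison of the genotypes on a high-fat diet (HFD) asks how its loss alters the liver transcriptome. The dams of both groups ate the HFD from before mating through lactation, and the males stayed on it until they were dissected at 12 weeks. The labels name a C57BL/6 background, whereas the methods describe the knockout line as bred into FVB, and each library is taken as 1 mouse.

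Counts of *Inpp4b* itself were 6, 20, 5 and 8 in HFD WT replicates 1 to 4 and 33, 10, 9 and 14 in replicates 1 to 4 labelled HFD Inpp4b-/-. The targeted gene therefore did not have fewer counts in the group labelled as knockout, and every direction below rests on the labels. Totals were 25893430 to 31427831 counts per library in HFD WT and 32738435 to 36662531 in the libraries labelled HFD Inpp4b-/-. Hepatocyte markers (*Alb*, *Ttr*, *Apoa1*, *Cps1*, *Tat* and *Ahsg*) summed to 75979 to 82571 CPM (counts scaled to a normalized library total of 1000000) in HFD WT and 77783 to 98694 CPM in the libraries labelled HFD Inpp4b-/-. The summed markers of Kupffer cells (6 genes, 42.4 to 120 and 82.2 to 158 CPM), endothelium (5 genes, 96.3 to 122 and 81.9 to 126 CPM), stellate cells (5 genes, 138 to 189 and 146 to 172 CPM) and cholangiocytes (5 genes, 23.7 to 31.6 and 29.7 to 40.6 CPM) overlapped between the groups. Of the 4 adipocyte markers, only *Cidec* has a row, at 4.22 to 15.7 and 9.09 to 12.5 CPM, and the 4 globin genes summed to 96.2 to 344 and 196 to 326 CPM. Among all these markers only *Hba-a2* was called by the rule given below, with 0.807 to 5.09 CPM in HFD WT and 0.236 to 0.583 CPM in the other group. DESeq2 at the same thresholds also called *Lrat* (stellate cells) and *Spp1* (cholangiocytes), beside 4.04% of the genes it tested. All libraries labelled HFD Inpp4b-/- were above every HFD WT library for *Alb*, *Ttr*, *Lrat* and *Spp1*, beside 4.63% of all genes tested. They were all below for *Tat* and *Hba-a2*, beside 4.09%. The part of cell composition in the results below was not tested, and in bulk liver fewer cells of a type and less RNA per cell cannot be told apart.

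MUPs are small lipocalins that hepatocytes secrete into the blood. They pass through the kidney into the urine, where they bind volatile pheromones and release them slowly from scent marks. Male mice make more of them than females, because the pulsed growth hormone pattern of males drives their transcription through STAT5 in the liver. *Mup20* encodes darcin, itself a male pheromone that attracts females. Circulating MUP1 has also been linked to glucose and lipid metabolism.

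All 10 genes lie on chromosome 4 of GRCm38, on the minus strand, within a cluster whose 40 rows span 59964294 to 62150863, or 2.19 Mb. The annotation places *Mup7* at 60066469 to 60070475, *Mup2* at 60135932 to 60154289, *Mup1* at 60498012 to 60501960 and *Mup10* at 60578260 to 60582199. Next along the chromosome are *Mup11* at 60658466 to 60662411, *Mup14* at 61300023 to 61304000 and *Mup17* at 61591929 to 61595871. At the far end lie *Mup20* at 62050234 to 62054158, *Mup3* at 62083476 to 62087342 and *Mup21* at 62147932 to 62150863.

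How alike the genes are in sequence decides how well reads can be assigned to each, so a stretch of the coding sequence is shown for every gene. It is the 60-base window with the most variable positions, coding bases 212 to 271 of *Mup17*, in which 25 positions vary among the 10 genes. Sequences are from the GENCODE M21 transcripts, and capitals mark bases that differ from *Mup17*.
Mup17: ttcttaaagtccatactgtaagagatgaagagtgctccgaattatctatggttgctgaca
Mup7: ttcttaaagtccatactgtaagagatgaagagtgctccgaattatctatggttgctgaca
Mup10: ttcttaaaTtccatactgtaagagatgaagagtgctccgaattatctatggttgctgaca
Mup1: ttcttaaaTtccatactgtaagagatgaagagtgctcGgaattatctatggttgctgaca
Mup2: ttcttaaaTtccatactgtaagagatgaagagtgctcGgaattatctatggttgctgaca
Mup11: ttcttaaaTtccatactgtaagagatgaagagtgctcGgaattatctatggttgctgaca
Mup14: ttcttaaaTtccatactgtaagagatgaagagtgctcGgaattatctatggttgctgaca
Mup20: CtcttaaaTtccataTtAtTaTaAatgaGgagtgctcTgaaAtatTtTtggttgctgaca
Mup21: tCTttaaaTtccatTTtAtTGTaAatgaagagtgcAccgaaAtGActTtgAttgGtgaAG
Mup3: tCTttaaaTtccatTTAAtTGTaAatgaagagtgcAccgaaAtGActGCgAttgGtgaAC
*Mup7* and *Mup17* share this stretch base for base, and so do *Mup1*, *Mup2*, *Mup11* and *Mup14*. *Mup10* differs from *Mup17* at 1 position, *Mup20* at 12, *Mup21* at 19 and *Mup3* at 21.

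Over the whole coding sequence the genes form a core of 7 (*Mup1*, *Mup2*, *Mup7*, *Mup10*, *Mup11*, *Mup14* and *Mup17*), whose 21 pairs were 98.5% to 99.8% identical. *Mup2* and *Mup11* were the closest pair of the 10, with 1 difference in 543 aligned bases. *Mup20*, *Mup3* and *Mup21* stood apart from the core at 85.3% to 91.5% identity, while *Mup3* and *Mup21* were 96.3% identical to each other. To show what this means for reads of 150 bases, each transcript was cut into all windows of that length and each window was looked for in the transcripts of every other gene. For *Mup3* and *Mup21* every window was found in no other gene. The share of such windows was 68.9% for *Mup20*, 59.6% for *Mup17*, 27.1% for *Mup7*, 21.8% for *Mup11*, 21.0% for *Mup14*, 15.6% for *Mup10*, 12.6% for *Mup1* and 9.25% for *Mup2*. How the authors' counting treated reads that match several genes is not given in the sources used here. The values of the core genes are therefore uncertain as values of single genes, and those of *Mup3* and *Mup21* are the most secure. The reference is of the C57BL/6J strain, and whether the mice carried the same copies was not tested.

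**Figure D1:**
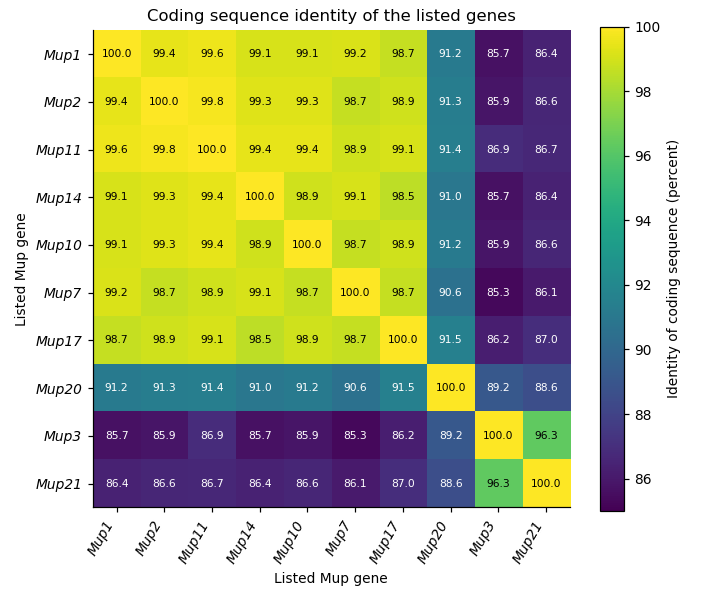
Percent identity of the aligned coding sequences for each pair of the 10 genes (both axes list the genes, colour and number give the identity). The 7 core genes form a block of at least 98.5%, *Mup20* sits at no more than 91.5% with any other gene, and *Mup3* and *Mup21* resemble each other more than any core gene.

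The most abundant members took a large part of the liver's counts. All 40 Mup rows held 5.30, 4.90, 5.92 and 6.42% of the counts in HFD WT replicates 1 to 4. In replicates 1 to 4 labelled HFD Inpp4b-/- they held 2.89, 3.63, 4.73 and 4.39%, and each of the 4 lay below every HFD WT library. After TMM normalization the same rows summed to 55112, 48525, 58172 and 63833 CPM in HFD WT and 28116, 34381, 49882 and 45179 CPM in the libraries labelled HFD Inpp4b-/-. On this scale the groups overlapped, because HFD Inpp4b-/- replicate 3 exceeded HFD WT replicate 2. The log2 ratio of the group means was -0.52. The 10 genes alone summed to 41593, 32948, 42066 and 38783 CPM in HFD WT and 17299.5, 21859.8, 28197 and 31037 CPM in the libraries labelled HFD Inpp4b-/-. They made up 60.8% to 75.5% of the Mup counts in HFD WT and 56.5% to 68.7% in the libraries labelled HFD Inpp4b-/-.

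Levels of different genes can be compared only per length, as CPM per kilobase of annotated exon. On that scale *Mup7* was the highest in HFD WT, with a median of 11518 (9675 to 13702), above every library's value for *Mup3*, which followed with 8166 (7229 to 9370). *Mup17* came next with 6984 (5562 to 9291), a range that overlapped that of *Mup3*. *Mup20* (2536), *Mup11* (2121), *Mup14* (1995) and *Mup21* (1182) followed, each overlapping the next in range, and the lowest were *Mup10* (618), *Mup1* (567) and *Mup2* (102). Besides *Mup7* above *Mup3*, the neighbours in this order without overlap were *Mup17* above *Mup20* and *Mup1* above *Mup2*. In the libraries labelled HFD Inpp4b-/- the order was *Mup3* (7677), *Mup7* (5073), *Mup17* (4553), *Mup10* (1635), *Mup21* (1139), *Mup14* (1026), *Mup11* (495), *Mup1* (439), *Mup20* (319) and *Mup2* (157). On this scale *Mup20* stood 4th of 10 in HFD WT and 9th in the libraries labelled HFD Inpp4b-/-. *Mup10* stood 8th and 4th. These ranks depend on the length used, which takes in every annotated exon of a gene. It was 1576 bases for *Mup11*, 1382 for *Mup14* and 1391 for *Mup10*, but 928 for *Mup20*. The transcripts of these genes that were cut into windows above had 930, 925, 927 and 928 bases. Ranks by transcript length were not taken. In the libraries labelled HFD Inpp4b-/- the neighbours whose ranges did not overlap were *Mup17* above *Mup10* and *Mup20* above *Mup2*. All other neighbours there overlapped. *Mup10*, *Mup1* and *Mup2*, the lowest in HFD WT, also had the smallest shares of windows found in no other gene (15.6%, 12.6% and 9.25%). Whether read assignment lowered their counts was not tested.

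*Mup20*, the darcin gene, differed most. It was at 3900.2, 1592, 2873 and 1834 CPM in HFD WT replicates 1 to 4. Replicates 1 to 4 labelled HFD Inpp4b-/- had 275, 292, 299.7 and 807 CPM, with replicate 4 well above the other three and still below every HFD WT library. The means were 2549.6 ± 1058 CPM in HFD WT and 418 ± 259 CPM in the libraries labelled HFD Inpp4b-/- (SD, n = 4 each), and the fitted log2 fold change was -2.61 ± 0.42 (SE), or 6.10-fold lower in the libraries labelled HFD Inpp4b-/-. Without replicate 4 labelled HFD Inpp4b-/- the log2 fold change was -3.14, and without HFD WT replicate 1 it was -2.33.

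*Mup11*, a core gene, was at 3851, 1816, 2956 and 3730.3 CPM in HFD WT replicates 1 to 4. The libraries labelled HFD Inpp4b-/- gave 509, 662, 898 and 1967 CPM. Replicates 1 to 3 labelled HFD Inpp4b-/- lay below every HFD WT library, whereas replicate 4 was above HFD WT replicate 2, so the groups overlapped. The log2 fold change was -1.61 ± 0.41, with -2.16 without HFD Inpp4b-/- replicate 4 and -1.39 without HFD Inpp4b-/- replicate 1.

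*Mup7*, the most abundant member in HFD WT, was at 14154, 10816, 12981 and 9994 CPM there. It was at 2643, 3945, 6537 and 9112 CPM in the libraries labelled HFD Inpp4b-/-, a spread of 3.45 times from the lowest to the highest. The groups did not overlap, with HFD Inpp4b-/- replicate 4 just under HFD WT replicate 4, and the log2 fold change was -1.11 ± 0.33.

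*Mup14* showed the same order of libraries in the second group, with 2672, 2133, 2841 and 3610.2 CPM in HFD WT and 691, 1175, 1661 and 1849.7 CPM in the libraries labelled HFD Inpp4b-/-. The groups did not overlap and the log2 fold change was -1.07 ± 0.28. *Mup17* was at 5156, 5552, 7395 and 8613 CPM in HFD WT and 2807, 3316, 5540.0 and 5126 CPM in the libraries labelled HFD Inpp4b-/-. Here replicate 3 labelled HFD Inpp4b-/- lay above HFD WT replicate 1, and the log2 fold change was -0.67 ± 0.25.

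*Mup1*, whose product has been studied as a circulating metabolic signal, was at 812, 776, 1508 and 985 CPM in HFD WT and 496, 644, 1078 and 747 CPM in the libraries labelled HFD Inpp4b-/-. The ranges overlapped widely, and the log2 fold change was -0.46 ± 0.27.

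A pair of core genes lay in the other direction. *Mup10* was at 414, 1818, 356 and 1305 CPM in HFD WT and 2269, 2838, 2279 and 1962 CPM in the libraries labelled HFD Inpp4b-/-. All 4 libraries labelled HFD Inpp4b-/- were above every HFD WT library, and within HFD WT the values of replicates 1 and 3 were far below those of replicates 2 and 4. Its log2 fold change was 1.26 ± 0.47. *Mup2*, the least abundant member, was at 60.7, 154, 119 and 193 CPM in HFD WT and 198, 220.1, 306 and 136 CPM in the libraries labelled HFD Inpp4b-/-. Its groups overlapped through HFD Inpp4b-/- replicate 4, and the log2 fold change was 0.71 ± 0.33.

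*Mup3* and *Mup21*, whose reads are the least open to exchange with other copies, lay close to 0. *Mup3* was at 9429.9, 7720.2, 10007 and 8013 CPM in HFD WT and 6819, 7818, 8581 and 8782 CPM in the libraries labelled HFD Inpp4b-/-, with a log2 fold change of -0.14 ± 0.13. *Mup21* was at 1144, 570.3, 1029 and 505 CPM in HFD WT and 593, 949, 1019 and 549 CPM in the libraries labelled HFD Inpp4b-/-, with a log2 fold change of -0.06 ± 0.30. The groups overlapped in both genes, and the sign for *Mup21* turned when any one of 4 libraries was left out.

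**Figure D2:**
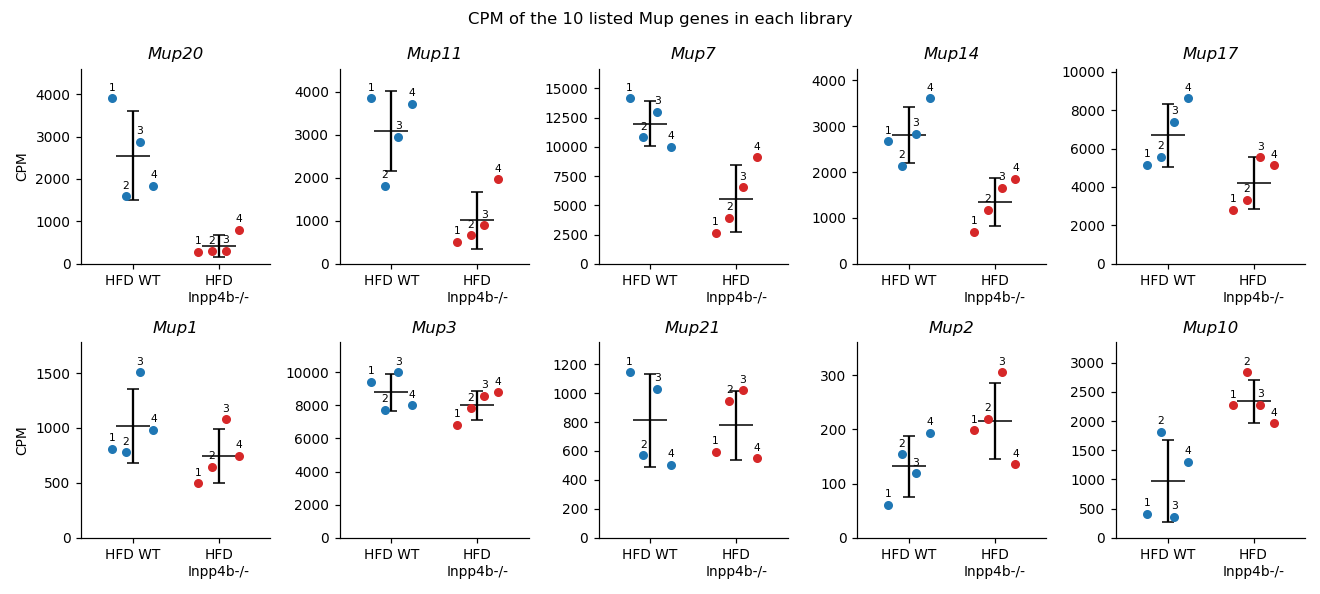
CPM (vertical axes, linear from 0, one panel a gene) of the 10 genes in 4 HFD WT (blue) and 4 libraries labelled HFD Inpp4b-/- (red), with replicate numbers beside the points and black bars for the mean and SD. *Mup20*, *Mup7* and *Mup14* have no overlap between the groups with lower values in red, *Mup10* has none with higher values in red, and the other 6 genes overlap.

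Taking the 10 together, 8 log2 fold changes were negative and 2 positive, with a median of -0.57 beside 0.00 over all 14866 genes tested. The groups did not overlap, with lower values in the libraries labelled HFD Inpp4b-/-, for 3 of the 10, beside 4.09% of all genes tested. They did not overlap in the other direction for 1 of the 10, beside 4.63%. A call required a fold over 1.3 and, in edgeR's quasi-likelihood test, a p under 0.10 after Benjamini-Hochberg adjustment. Of the 10 genes 1, *Mup20*, was called, beside 1.17% of all genes tested. With DESeq2 at the same thresholds 4 were called (*Mup7*, *Mup11*, *Mup14* and *Mup20*), beside 4.04% of the genes that tool tested. Since the 10 were chosen with this contrast known, nothing is read from these counts. The call for *Mup20* was lost without HFD Inpp4b-/- replicate 2 or replicate 3, where none of the 10 was called.

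The libraries also differed in which copies made up the Mup counts. *Mup7* took 25.7, 22.3, 22.3 and 15.7% of all Mup counts in HFD WT replicates 1 to 4 and 9.40, 11.5, 13.1 and 20.2% in replicates 1 to 4 labelled HFD Inpp4b-/-. *Mup3* took 17.1, 15.9, 17.2 and 12.6% in HFD WT and 24.3, 22.7, 17.2 and 19.4% in the libraries labelled HFD Inpp4b-/-, overlapping only at 17.2%. *Mup20* held 7.08, 3.28, 4.94 and 2.87% in HFD WT and 0.977, 0.849, 0.601 and 1.79% in the other group, with no overlap. The share of *Mup10* was 0.750, 3.75, 0.613 and 2.04% in HFD WT and 8.07, 8.26, 4.57 and 4.34% in the libraries labelled HFD Inpp4b-/-, again with no overlap but in the other direction. *Mup9*, a coding gene outside the 10 whose coding sequence is identical to that of *Mup18* where the pair align, had the widest range. It held 0.755, 7.28, 0.671 and 13.0% in HFD WT and 18.2, 15.3, 23.2 and 8.37% in the libraries labelled HFD Inpp4b-/-.

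**Figure D3:**
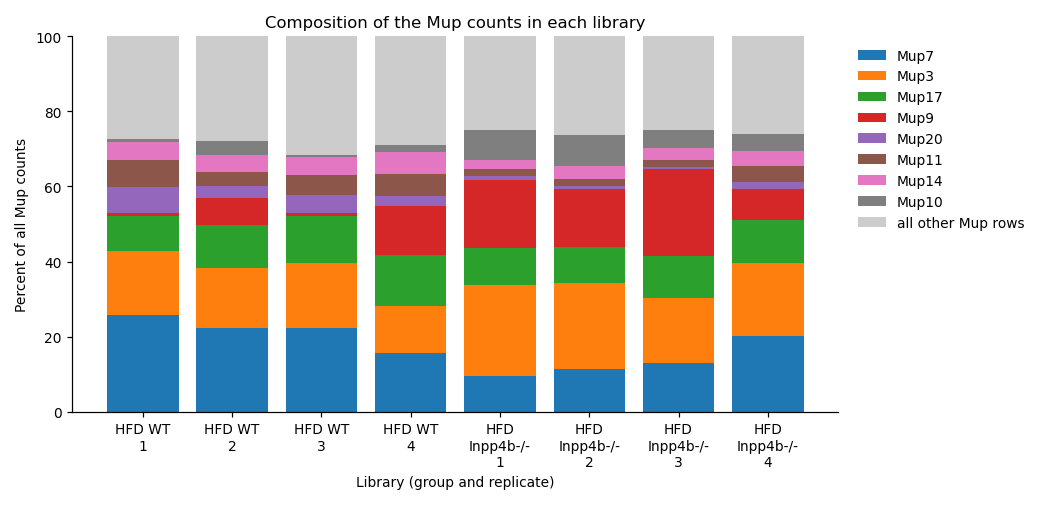
Share of all Mup counts (vertical axis, percent) held by 8 Mup genes and by all other Mup rows in each of the 8 libraries (horizontal axis). *Mup9* and *Mup10* are thin in HFD WT replicates 1 and 3, and *Mup7* is the largest share in all 4 HFD WT libraries and in HFD Inpp4b-/- replicate 4.

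Low values in HFD WT replicates 1 and 3 were shared by several copies. *Mup9* was at 416, 3530.5, 390.5 and 8280.4 CPM in HFD WT, with replicates 1 and 3 far below the others, and at 5118, 5268, 11569 and 3779.7 CPM in the libraries labelled HFD Inpp4b-/-. The pseudogene *Mup-ps4* had 13, 414, 6 and 212 counts in HFD WT replicates 1 to 4 and 977, 1081, 957 and 634 in the libraries labelled HFD Inpp4b-/-. *Mup-ps10* had 5, 151, 12 and 52 counts in HFD WT and 385, 419, 521 and 285 in the libraries labelled HFD Inpp4b-/-, and *Mup-ps2* had 2, 93, 5 and 41 against 267, 228, 244 and 103. With *Mup10*, these 5 rows thus had their lowest 2 libraries in common, both HFD WT. The same 2 libraries were the lowest for the listed gene *Mup2*, at 60.7 and 119 CPM. They were also the lowest for the scarce *Mup-ps1*, *Mup-ps3* and *Gm21286*, a pseudogene inside the cluster without a Mup symbol. All these rows were picked after their values were seen.

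Of the 30 Mup rows outside the 10, 28 were tested, 21 with negative and 7 with positive log2 fold changes, and their median was -0.56. Among the 11 coding genes outside the 10 the range was -1.95 to 1.03, with 9 negative. *Mup16*, *Mup-ps19* and *Mup-ps23* were called by edgeR, all lower in the libraries labelled HFD Inpp4b-/-, beside 0.619% of all genes tested. DESeq2 called 8 of the 28, beside 4.04% of the genes it tested. *Mup16* was at 831, 1022, 1139 and 1005 CPM in HFD WT and 415, 472, 705 and 658 CPM in the libraries labelled HFD Inpp4b-/-, a log2 fold change of -0.83 ± 0.18. *Mup-ps19*, a pseudogene between *Mup5* and *Mup20*, had 8691, 1831, 6655 and 3377 counts in HFD WT and 364, 386, 426 and 1126 in the libraries labelled HFD Inpp4b-/-. As for *Mup20*, HFD WT replicate 1 was the highest and HFD Inpp4b-/- replicate 4 the highest of its group. *Mup-ps23* had few counts, 85, 30, 31 and 11 against 2, 4, 0 and 1. *Mup19*, *Mup15*, *Mup13* and *Mup5* were coding genes that DESeq2 called and edgeR did not. The first 3 had no overlap between the groups either, with log2 fold changes of -1.95 ± 0.48, -1.23 ± 0.30 and -0.63 ± 0.14. *Mup5* was scarce and overlapped, at 1.58 to 8.14 CPM in HFD WT and 0.927 to 2.33 CPM in the other group (-1.56 ± 0.49). *Mup-ps10*, also called by DESeq2 alone, was higher in the libraries labelled HFD Inpp4b-/- without overlap (2.64 ± 0.73).

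**Figure D4:**
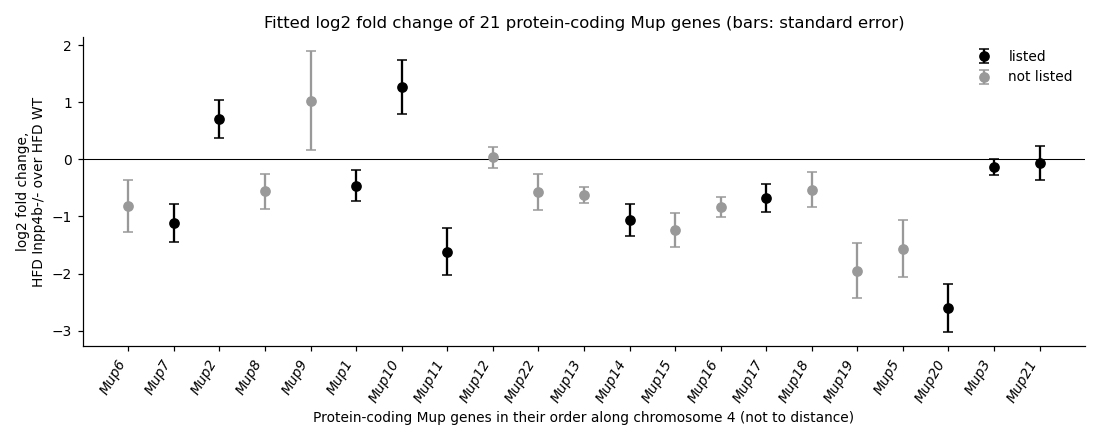
Fitted log2 fold change (vertical axis, libraries labelled HFD Inpp4b-/- over HFD WT, bars show the standard error) of the 21 coding Mup genes in their order along chromosome 4 (horizontal axis, not to distance), with the 10 listed genes in black and the 11 others in grey. *Mup20* is the lowest at -2.61, *Mup2*, *Mup9* and *Mup10* are the highest, and *Mup3* and *Mup21* at the right end are near 0.

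The sequence before the start of transcription was compared because the members differ in direction. RefSeq promoters (GRCm38.p6, 250 bases before to 50 bases after the start) were found for 8 of the 10 genes, all but *Mup1* and *Mup20*. A stretch that all 8 share is shown for a gene of intermediate change and for the most abundant gene. It is also shown for *Mup10*, 1 of the 2 genes with the opposite direction, and for the genes near 0. Capitals mark bases that differ from *Mup17*, on the minus strand.
Mup17, chr4:61595957-61596076: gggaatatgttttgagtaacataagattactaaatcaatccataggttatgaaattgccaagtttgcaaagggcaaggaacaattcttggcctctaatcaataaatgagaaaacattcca
Mup7, chr4:60070471-60070590: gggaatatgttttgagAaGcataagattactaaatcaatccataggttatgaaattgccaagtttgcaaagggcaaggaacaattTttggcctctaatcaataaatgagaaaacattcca
Mup10, chr4:60582286-60582405: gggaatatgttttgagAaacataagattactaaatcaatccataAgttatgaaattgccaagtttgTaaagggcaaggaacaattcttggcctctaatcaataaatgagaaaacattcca
Mup3, chr4:62087394-62087512: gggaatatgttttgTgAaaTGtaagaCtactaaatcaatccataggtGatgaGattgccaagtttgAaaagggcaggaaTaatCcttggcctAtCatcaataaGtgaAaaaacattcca
Mup21, chr4:62150912-62151030: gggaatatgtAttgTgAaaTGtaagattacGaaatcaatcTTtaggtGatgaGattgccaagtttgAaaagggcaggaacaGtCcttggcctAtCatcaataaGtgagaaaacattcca
These bases lie 244 to 125 bases before the start of *Mup17*, and those of *Mup7* reach just past its annotated start, which RefSeq places farther upstream. *Mup7* and *Mup10* each differ from *Mup17* at 3 positions, *Mup3* at 14 and *Mup21* at 16. *Mup2* and *Mup11*, not shown, have the same 120 bases as each other, with 1 difference from *Mup17*. Their log2 fold changes were of opposite sign, 0.71 ± 0.33 for *Mup2* and -1.61 ± 0.41 for *Mup11*. Whether these bases bear on the level or direction of any member was not tested.

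Each promoter was searched on both strands for TATAAA (bound by the TATA-binding protein), TTCNNNGAA (the core of STAT5 sites) and TTGCNNAA (a C/EBP-type site). None of the 8 promoters held any of these letters, which occur in 13.6%, 8.30% and 10.8% of 32851 promoters of the same length. The letters ATATAAGG, chosen after the promoters were read, occur in 7 of the 8, all but *Mup7*, and in 0.776% of all promoters. The window of *Mup7* lies farther upstream than the others, with the stretch shown above beginning only 115 bases before its annotated start. It therefore ends sooner after that stretch. Whether any of the letters searched for lie beyond it was not tested, so their absence from *Mup7* is not read. The matches are a description of these windows.

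Regulators of the family were examined as a list of 24 genes of growth hormone signalling and Mup transcription, all tested. By edgeR 1 of these was called higher in the libraries labelled HFD Inpp4b-/-, beside 0.552% of all genes tested, and none lower, beside 0.619%. DESeq2 called 3 (*Foxa1*, *Foxa2* and *Zhx2*), beside 4.04%. The median log2 fold change was 0.06. The gene called by edgeR was *Foxa2*, a forkhead factor of hepatocyte genes, at 28.6, 27.4, 25.0 and 42.3 CPM in HFD WT and 60.7, 86.2, 54.1 and 74.1 CPM in the libraries labelled HFD Inpp4b-/- (log2 fold change 1.16 ± 0.19, edgeR adjusted p = 0.0351). The call was lost without HFD WT replicate 1 or without HFD Inpp4b-/- replicate 2. *Ghr*, the growth hormone receptor, was at 734, 655, 679.6 and 536 CPM in HFD WT and 718, 718, 725 and 693 CPM in the libraries labelled HFD Inpp4b-/- and did not pass (edgeR adjusted p = 0.613). *Stat5b*, which carries the growth hormone signal to the nucleus, had a log2 fold change of 0.26 ± 0.15 (edgeR adjusted p = 0.49).

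*Zhx2*, a repressor of several liver genes whose natural variants alter Mup expression in mice, was at 18.1, 20.5, 18.6 and 18.5 CPM in HFD WT and 11.1, 12.2, 15.3 and 14.4 CPM in the libraries labelled HFD Inpp4b-/-. The groups did not overlap, and the difference did not pass the call in edgeR (log2 fold change -0.52 ± 0.12, edgeR adjusted p = 0.115). *Cish*, a STAT5 target that feeds back on the receptor, was at 13.9, 8.38, 1.62 and 24.7 CPM in HFD WT. It was at 54.6, 40.6, 18.3 and 51.3 CPM in the libraries labelled HFD Inpp4b-/- and did not pass either (log2 fold change 1.77 ± 0.62, edgeR adjusted p = 0.259). Its log2 fold change was 1.40 without HFD WT replicate 3 and 2.37 without HFD WT replicate 4. *Socs2*, *Igf1*, *Igfals* and *Bcl6* of the same list had log2 fold changes of -0.16 ± 0.54, 0.01 ± 0.17, 0.24 ± 0.18 and -1.12 ± 0.53. None of them was called by edgeR or DESeq2.

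Other male-biased liver genes were counted next, since the Mup genes are the best known of that kind. The list holds 14 genes, all tested, and was written with earlier results of these data known, so its direction is not independent evidence. Of the 14, edgeR called 6 lower and none higher, beside 0.619% and 0.552% of all genes tested. DESeq2 called 8, beside 4.04% of the genes it tested. Log2 fold changes were negative for 13 and positive for 1, with a median of -0.82. *Serpina1e*, a protease inhibitor of the alpha-1-antitrypsin group, was at 6379, 5827, 11592 and 6408 CPM in HFD WT and 1275, 1102, 274 and 244 CPM in the libraries labelled HFD Inpp4b-/- (log2 fold change -3.38 ± 0.57, edgeR adjusted p = 0.0375). *Cyp4a12b*, a fatty acid hydroxylase with a near-identical neighbour in *Cyp4a12a*, was at 41.1, 20.8, 26.9 and 62.4 and 3.69, 3.84, 5.82 and 5.90 CPM (log2 fold change -2.97 ± 0.34, edgeR adjusted p = 0.00787). *Cyp4a12a* had a log2 fold change of -0.22 ± 0.11 and did not pass (edgeR adjusted p = 0.414).

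*Cyp7b1*, a hydroxylase of oxysterols and steroids, fell with a log2 fold change of -0.96 ± 0.21 (edgeR adjusted p = 0.0869). *Gstp1*, a glutathione transferase, fell with -1.50 ± 0.31 (edgeR adjusted p = 0.0804), and *C6*, a component of complement, with -1.14 ± 0.23 (edgeR adjusted p = 0.0804). These last 3 calls were each lost under 8 of 14 alternatives, and without any 1 library other than HFD WT replicate 2 the list had 3 calls. *Moxd1* had 774, 290, 939 and 64 counts in HFD WT and 0, 2, 5 and 4 in the libraries labelled HFD Inpp4b-/- (edgeR adjusted p = 0.0116). Among those that did not pass, the steroid dehydrogenase *Hsd3b5* had a log2 fold change of -0.67 ± 0.18, the fatty acid elongase *Elovl3* -0.49 ± 0.46 and the organic anion transporter *Slco1a1* -0.02 ± 0.10. Male-biased genes thus differed among themselves, as the Mup genes did.

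Of the other lipocalins of liver and plasma, 9 of 10 had a row and none was called by edgeR or DESeq2, where 1.17% and 4.04% of all genes were. In edgeR 4 of the 9 had an unadjusted p under 0.05, beside 13.9% of all genes tested, and the median log2 fold change was -0.48. *Rbp4*, the retinol carrier, was at 3136, 3165, 3235 and 3010.3 CPM in HFD WT and 3306, 2678, 3845 and 3651 CPM in the libraries labelled HFD Inpp4b-/- (edgeR adjusted p = 0.753). *Lcn2*, an iron-siderophore binder of the acute phase, had a log2 fold change of -2.46 ± 1.04 (edgeR adjusted p = 0.33), which rested on 118 CPM in HFD WT replicate 1 and was -0.42 without that library. *Apom*, a carrier of sphingosine phosphate, and *Orm1*, an acute-phase plasma protein, had -0.35 ± 0.11 and -0.81 ± 0.33 (edgeR adjusted p = 0.219 and 0.319).

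Genes beside and among the Mup genes were examined to see whether the region as a whole differed. Within 1 Mb of the cluster 25 genes without a Mup symbol were tested, 3 of them inside the span, and none was called by edgeR, where 1.17% of all genes tested were. In edgeR 7 of the 25 had an unadjusted p under 0.05, beside 13.9% of all genes tested, and DESeq2 called 2 (*Zfp37* and *Alad*), beside 4.04%. Their median log2 fold change was -0.04. The nearest tested gene on the low-coordinate side, *Snx30*, a sorting nexin, had a log2 fold change of -0.14 ± 0.26 (edgeR adjusted p = 0.852). On the other side *Zfp37*, a zinc finger gene, was scarce at 0.443, 0.850, 1.41 and 0.346 CPM in HFD WT and 0.111, 0.0788, 0.0644 and 0.365 CPM in the libraries labelled HFD Inpp4b-/- (log2 fold change -2.27 ± 0.67, edgeR adjusted p = 0.193). Its log2 fold change was -3.11 without HFD Inpp4b-/- replicate 4.

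The pattern of the family over the libraries was summarised as the median log2 CPM of the 10 genes, centred on its mean over the 8 libraries. It was 0.91, 0.09, 0.74 and 0.59 in HFD WT replicates 1 to 4 and -1.42, -0.70, -0.36 and 0.15 in replicates 1 to 4 labelled HFD Inpp4b-/-. HFD Inpp4b-/- replicate 4 thus lay just above HFD WT replicate 2. *Mup7* and *Mup14* were nearest to this median, with a root mean square difference of 0.20 and 0.22 on the log2 scale, and *Mup10* was farthest at 1.72, beyond *Mup2* at 1.27.

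The 5 genes without a Mup symbol nearest to that pattern over the 8 libraries were *C6*, *Tmc7*, *Tsku*, *Acsm2* and *Acsl4*. Their root mean square differences were 0.19, 0.25, 0.26, 0.27 and 0.28 on the log2 scale. *C6* was at 665, 363, 622 and 483 CPM in HFD WT and 162, 212, 298 and 295 CPM in the libraries labelled HFD Inpp4b-/-. *Tsku*, a secreted leucine-rich repeat protein, was at 148, 131, 138 and 179.8 and 47.2, 50.5, 72.4 and 111 CPM. *Acsl4*, which activates long-chain polyunsaturated fatty acids, was at 125, 88.9, 113 and 131 and 44.9, 53.6, 69.6 and 71.1 CPM. The values of *Tmc7* and *Acsm2* were far lower, at 4.75 to 16.5 and 1.25 to 4.35 CPM over the 8 libraries. The 5 were picked for their values in these libraries, so their likeness carries no test.

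**Figure D5:**
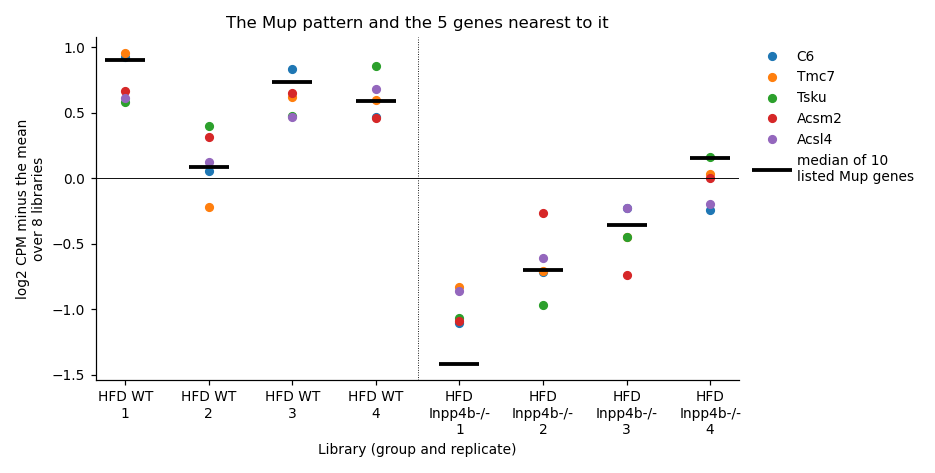
Centred log2 CPM (vertical axis) of the median of the 10 Mup genes (black bars) and of the 5 nearest genes (coloured points) in each of the 8 libraries (horizontal axis). Black bars run from -1.42 in HFD Inpp4b-/- replicate 1 to 0.91 in HFD WT replicate 1, and the points of all 5 genes lie above the bar in HFD Inpp4b-/- replicate 1.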

How the data were processed

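Liver RNA of male mice, 4 HFD WT and 4 HFD Inpp4b-/-, was measured by 150-bp paired-end RNA sequencing, and groups and replicate numbers were taken from the sample labels. The authors aligned the reads to GRCm38 with HISAT2, counted reads per gene with HTSeq and deposited raw counts, which were used here. A deposited normalized table was not used. Strand setting and treatment of multiply matching reads are not given in the sources used here. Symbols, coordinates, exon lengths and transcripts were taken from GENCODE M21, to which all 18095 identifiers matched.

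The test was made in edgeR 4.0.16, by TMM, filterByExpr, glmQLFit and glmQLFTest without a covariate, over all 14866 genes that passed the filter, all 10 listed Mup genes and 38 of the 40 Mup rows among them. The biological coefficient of variation was 0.251. Calls needed a fold over 1.3 and a p under 0.10 after Benjamini-Hochberg adjustment over all genes tested, the thresholds of the study. Alternatives were DESeq2 1.42.0, its size factors, library totals, no expression filter, a stricter adjusted p, a replicate block, all Mup rows summed to 1 feature, and each library left out. Log2 CPM used a prior count of 2. Coding identities came from pairwise global alignments in Biopython 1.88, with gapped positions left out. MAFFT 7.526 aligned the sequences from which the coding and promoter stretches shown were taken, and promoters came from RefSeq. Protein sequences were not used here, so identity is that of coding sequence. R 4.3.3 and Python 3.11.15 were used. The script for calls was checked on simulated counts at the same thresholds. There 12 of 167 edgeR calls (7.19%) and 60 of 228 DESeq2 calls (26.3%) were false. Those counts were drawn with the gene dispersions that edgeR had estimated. The rates therefore cannot rank the tools, nor give the share of false calls in the real data.

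The Mup genes and all gene lists were chosen with earlier results of these data known. Named were the 10 genes, other Mup rows by count and range, the called members of each list with up to 4 others of best-known role, the called neighbours of the cluster, the nearest tested gene on each side and the 5 genes nearest to the family pattern. *Socs2*, *Igf1*, *Igfals*, *Bcl6* and *Gm21286* were named in addition. No 2 libraries of a group were near copies. Same-numbered replicates did not deviate together (correlations -0.17 to -0.01 over 4 pairs), so the numbers do not pair mice. With nothing naming separate litters, p-values measure the spread between these samples only.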

Additional observations from a re-analysis of the deposited data

Results flagged for a closer look

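Among 152 groups of 4 libraries examined, 5 held a value set apart from the remaining 3 (its gap to the nearest exceeded Dixon's 95% critical share of the range), where chance alone gives about 1 in 20 groups. *Mup20* was at 807 CPM in HFD Inpp4b-/- replicate 4, with 299.7 CPM in the next. *Lcn2* was at 118 CPM in HFD WT replicate 1, with 17.4 CPM in the next, and *C8g* was at 429 CPM in the same library, with 383 CPM in the next. *Cux2* was at 4.25 CPM in HFD WT replicate 2, with 0.674 CPM in the next. *Serpina1e* was at 11592 CPM in HFD WT replicate 3, with 6408 CPM in the next.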

How the results depend on the processing

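The number of genes called was 174 and became 688 with DESeq2, 26 with the replicate block, 71 at an adjusted p under 0.05, and 53 (without HFD Inpp4b-/- replicate 2) to 345 (without HFD WT replicate 2) when 1 library was left out. Listed Mup genes called were 1, with 4 by DESeq2, 0 with the replicate block, and 0 to 2 without 1 library. Of the genes of growth hormone signalling and Mup transcription 1 was called, with 3 by DESeq2 and 0 to 1 without 1 library. Other male-biased liver genes called were 6, with 2 under the replicate block, 3 at an adjusted p under 0.05, and 3 to 6 without 1 library. Neighbours of the cluster called were 0, with 2 by DESeq2 and 0 to 1 without 1 library. The cause of these shifts was not tested. The replicate block is reported although the replicate numbers do not pair the mice (correlations -0.17 to -0.01 between same-numbered libraries, -0.03 to 0.14 between others). The log2 ratio of summed Mup CPM, -0.52, was -0.53 with DESeq2's size factors and with library totals, and -0.65 to -0.39 without 1 library, shifts smaller than the SD between libraries (0.29). A fit of the sum, added after the data were seen, gave -0.52. The signs of 9 listed genes held in all 13 alternatives. Leaving out 1 library moved *Mup21* over -0.23 to 0.15, with a positive sign without HFD Inpp4b-/- replicate 1 (0.047), HFD Inpp4b-/- replicate 4 (0.072), HFD WT replicate 1 (0.15) or HFD WT replicate 3 (0.072). It moved *Elovl3* over -0.77 to 0.18 (positive without HFD WT replicate 4), *Slco1a1* over -0.062 to 0.045 (positive without HFD WT replicate 3 and, at 0.0043, without HFD Inpp4b-/- replicate 4) and *Snx30* over -0.38 to 0.020 (positive without HFD WT replicate 3). The median log2 fold change of all genes stayed within 0.01 of 0 under each scaling. The counts do not limit the listed genes, whose lowest count was 1647. Of the 150-base windows of the core transcripts, only 9.25% (*Mup2*) to 59.6% (*Mup17*) were found in no other gene. The assignment of reads to single core copies therefore stays uncertain.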
